A study of Homo sapiens with 4 samples.

Results

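The miR-130, miR-301 and miR-454 seed family was described in exosomes of human colon cancer cells through 5 of the 2588 mature miRNAs listed for each library: hsa-miR-130a-3p, hsa-miR-130b-3p, hsa-miR-301a-3p, hsa-miR-454-3p and hsa-miR-454-5p, written below without the species prefix. They were chosen by name, as the 3p strands of this family and the opposite strand of miR-454, and every one of them is listed in all 4 libraries. Exosomes are small vesicles that cells release, and they were purified by differential ultracentrifugation of culture medium before small RNA sequencing. The groups are HCT29 spheres, HCT29 parental cells, HCT15 spheres and HCT15 parental cells, with 1 library each. Spheres are floating colonies, expanded here for 3 weeks in DMEM/F12 with N2 supplements, 10 ng/ml bFGF and 10 ng/ml EGF. Parental cells were kept in complete RPMI, and their exosomes were collected in an exosome-depleted form of it, so culture form and medium cannot be told apart. Both lines are labelled as colon cancer cells, and the growth text of the HCT29 samples names HCT15, so the HCT29 libraries are called by their label only. The study asked which exosomal miRNAs differ between spheres, used to enrich for cancer stem cells, and parental cells.

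A miRNA guides Argonaute proteins to messenger RNAs mainly through its seed, bases 2 to 8 counted from the 5′ end, so that miRNAs with the same seed can repress overlapping sets of targets. Several members of the miR-130, miR-301 and miR-454 family have been described as raised in tumours of the gut. A hairpin precursor gives a 5p and a 3p strand, which are usually kept in unequal amounts. No mature sequence was matched for miR-130a-3p, which is placed in the family by its name. Sequences of the other 4 of the 5 members were matched by name, and all are from RefSeq (GRCh38.p14). They are shown, with miR-301b-3p as the remaining abundant miRNA of the seed, because the shared seed (in capitals) defines the family and sets miR-454-5p apart from it.
miR-130b-3p: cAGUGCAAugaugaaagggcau
miR-301a-3p: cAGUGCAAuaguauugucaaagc
miR-301b-3p: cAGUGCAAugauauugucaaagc
miR-454-3p: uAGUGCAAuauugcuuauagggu
miR-454-5p: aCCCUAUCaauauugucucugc
The seed AGUGCAA stood at bases 2 to 8 of 6 of the 2281 listed miRNAs that have a RefSeq sequence (0.263%). The remaining 2 of these 6, miR-3666 and miR-4295, had 0 reads in all 4 libraries. Beyond the seed the strands diverge. Compared base by base from the 5′ end, miR-301a-3p and miR-301b-3p were the same at 91.3% of 23 positions, miR-301a-3p and miR-454-3p at 56.5%, and miR-130b-3p and miR-454-3p at 45.5% of 22 positions. miR-301a-3p and miR-301b-3p are thus near-identical, and how the authors' counting treated reads that match both is not known here, so the split between this pair is uncertain.

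The hairpins come from 3 places in the genome (GENCODE release 29, GRCh38). MIR301A (chromosome 17, 59151136 to 59151221, minus strand) and MIR454 (chromosome 17, 59137758 to 59137872, minus strand) both lie in introns of SKA2, which encodes a protein of the spindle and kinetochore, 13263 bases apart. MIR301B (chromosome 22, 21652981 to 21653058, plus strand) and MIR130B (chromosome 22, 21653304 to 21653385, plus strand) are 245 bases apart within the noncoding gene AP000553.1, MIR301B in an intron and MIR130B in an exon. MIR130A (chromosome 11, 57641198 to 57641286, plus strand) lies in an intron of the noncoding gene AP000662.1.

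Values are RPM, the reads of a miRNA after the authors' scaling for library size, and they convert to whole reads with totals of 530920 for HCT29 sphere, 110666 for HCT29 parental, 461226 for HCT15 sphere and 146648 for HCT15 parental. A single read is worth 1.88, 9.04, 2.17 and 6.82 RPM in that order, so low values of the parental libraries are coarse. All intervals are exact 95% intervals for counting error only. They treat reads as independent, but PCR reads without molecular identifiers are not independent molecules, so the intervals may be too narrow. With 1 library per group no ratio within a line or culture has a replicate error, and no p-value is given for it. In exosome RNA, fewer vesicles from some cells and less of a miRNA in each vesicle cannot be told apart. All 8 miRNAs of colon epithelium tested had reads in every library, and in HCT15 parental 6 of the 8 had at least 10. Their summed levels were 87394 and 97952 RPM in HCT29 sphere and parental and 18316 and 9328 RPM in HCT15 sphere and parental. Blood cell markers had reads too, for 7 of 7 in HCT29 parental, 6 of 7 in HCT15 parental and 4 of 7 in either sphere library. Detection alone therefore does not check the labelled tissue.

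The family was a small part of exosomal miRNA in every library, and miR-130b-3p and miR-301a-3p held most of it. All listed miRNAs with the seed were counted, together with miR-130a-3p. They had 150 reads in HCT29 sphere, 93 in HCT29 parental, 530 in HCT15 sphere and 221 in HCT15 parental. These are 0.0326% (0.0276 to 0.0382), 0.0963% (0.0777 to 0.118), 0.128% (0.117 to 0.139) and 0.194% (0.169 to 0.221) of the listed miRNA reads in the same order. The highest ranking member in each library was between place 69 and place 104 among the miRNAs detected there, which numbered 423, 392, 712 and 476.

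miR-130b-3p had 124 RPM (66 reads, 96.1 to 158) in HCT29 sphere, 244 RPM (27 reads, 161 to 355) in HCT29 parental, 663 RPM (306 reads, 591 to 742) in HCT15 sphere and 771 RPM (113 reads, 635 to 926) in HCT15 parental. It was lower in HCT29 than in HCT15 in either culture, with intervals that do not overlap between the lines. miR-301a-3p, described as an activator of NF-kB signalling in cancer cells, had 96.1 RPM (51 reads, 71.5 to 126) in HCT29 sphere, 352 RPM (39 reads, 251 to 482) in HCT29 parental, 206 RPM (95 reads, 167 to 252) in HCT15 sphere and 443 RPM (65 reads, 342 to 565) in HCT15 parental. Here the cultures separated more than the lines, with both parental libraries above the sphere library of their own line.

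miR-454-3p had 24.5 RPM (13 reads, 13.0 to 41.9) in HCT29 sphere, 108 RPM (12 reads, 56.0 to 189) in HCT29 parental, 56.4 RPM (26 reads, 36.8 to 82.6) in HCT15 sphere and 164 RPM (24 reads, 105 to 244) in HCT15 parental. Its order over the libraries was that of miR-301a-3p, whose hairpin shares the SKA2 gene. The opposite strand, miR-454-5p, had 58.4 RPM (31 reads, 39.7 to 82.9) in HCT29 sphere, 0 reads in HCT29 parental, 6.50 RPM (3 reads, 1.34 to 19.0) in HCT15 sphere and 34.1 RPM (5 reads, 11.1 to 79.6) in HCT15 parental. It was highest in the library where miR-454-3p was lowest. The count of 0 is placed at 27.1 RPM, the level of 3 reads in HCT29 parental.

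miR-130a-3p, known from blood vessel endothelium and blood progenitors, had 0 reads in HCT29 sphere, 1 read (9.04 RPM, 0.229 to 50.3) in HCT29 parental, 42 reads (91.1 RPM, 65.6 to 123) in HCT15 sphere and 0 reads in HCT15 parental. With 3 reads taken for a count of 0, HCT29 sphere stands at 5.65 RPM and HCT15 parental at 20.5 RPM, so the member was clearly above the floor in the HCT15 sphere library and at or near it in the others. miR-301b-3p, which has the seed but is not among the 5 members, had 37.7 RPM (20 reads) in HCT29 sphere, 127 RPM (14 reads) in HCT29 parental, 132 RPM (61 reads) in HCT15 sphere and 129.6 RPM (19 reads) in HCT15 parental. It stood apart in HCT29 sphere, where it was lowest.

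**Figure D1:**
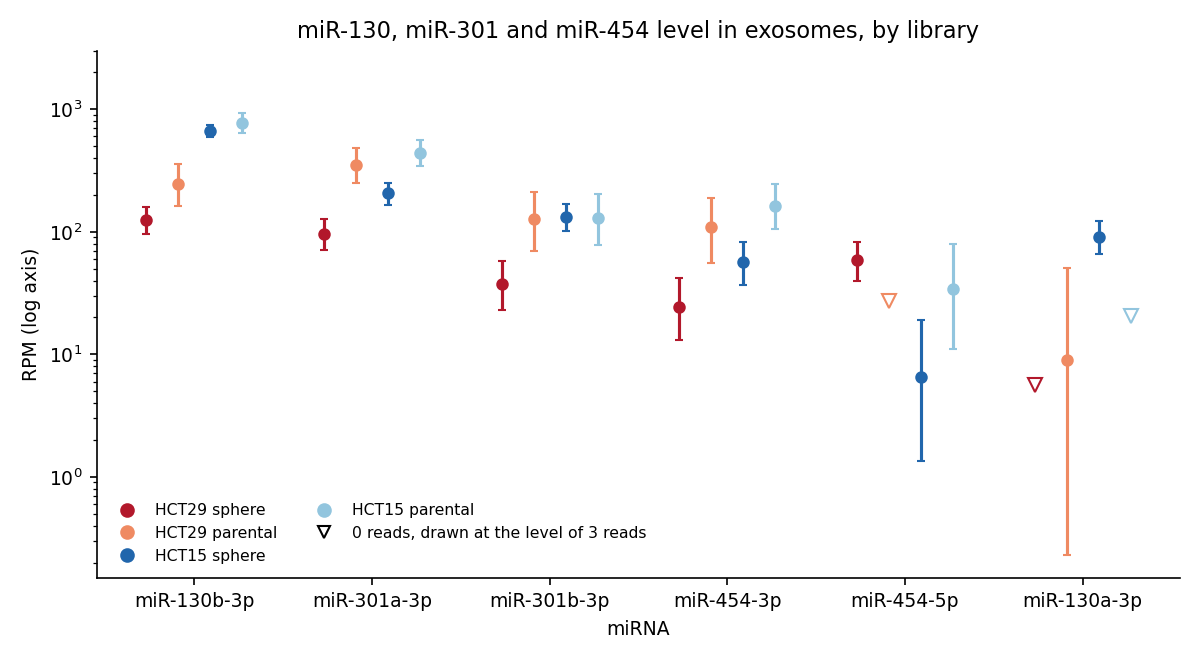
RPM (log axis) of the 5 members and miR-301b-3p in each library, with points for the deposited values, bars for exact 95% counting intervals, and open triangles for 0 reads, drawn at the level of 3 reads. miR-130b-3p and miR-301a-3p were the highest in all 4 libraries, miR-130a-3p was above the floor in HCT15 sphere at 91.1 RPM, and miR-454-5p was highest in HCT29 sphere at 58.4 RPM.

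Within HCT29 sphere the order of levels was miR-130b-3p, miR-301a-3p, miR-454-5p, miR-301b-3p and miR-454-3p. Of these neighbours, miR-301a-3p and miR-454-5p differed beyond counting error (ratio 1.65, 1.03 to 2.66), and the other pairs did not. In HCT29 parental the order was miR-301a-3p, miR-130b-3p, miR-301b-3p, miR-454-3p and miR-130a-3p, and the interval excluded 1 for the last step. In HCT15 sphere miR-130b-3p led miR-301a-3p by a ratio of 3.22 (2.55 to 4.10), and miR-301b-3p, miR-130a-3p and miR-454-3p followed, with no neighbour among these 3 differing beyond counting error. In HCT15 parental miR-130b-3p led miR-301a-3p by 1.74 (1.27 to 2.40), followed by miR-454-3p and miR-301b-3p, which did not differ from each other beyond counting error (1.26, 0.663 to 2.44), and by miR-454-5p.

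In HCT29, spheres were set against parental cells to ask how the family differs when the line grows as spheres. Sphere exosomes carried less of both SKA2 strands with the seed: the sphere over parental ratio of RPM was 0.273 (0.176 to 0.425) for miR-301a-3p and 0.226 (0.0950 to 0.541) for miR-454-3p. miR-130b-3p was at 0.510 (0.321 to 0.830) and miR-301b-3p at 0.298 (0.143 to 0.637) of the parental level. miR-454-5p went the other way, with 31 sphere reads and 0 parental reads, at least 2.15-fold higher with 3 reads taken for the 0, and at least 1.65-fold by the exact interval. Calls of higher or lower were made at 2-fold on log2(RPM + 1) for miRNAs with at least 10 reads in either library. By that rule 2 of the 4 members measured were lower, against 36.2% of the 224 miRNAs measured, and 1 was higher, against 23.2%. miR-130b-3p was within 2-fold (log2 ratio -0.97) and miR-130a-3p was not measured. miR-454-5p passed the minimum through the sphere library alone, so its higher call rests on the library that let it in. The median log2 ratio was -1.42 over the 4 members measured and -0.57 over all miRNAs measured. Over all miRNAs measured, 52 were higher and 81 lower as deposited, and 76 higher and 49 lower under TMM scaling.

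TMM scaling assumes that most miRNAs do not differ between libraries. It moved the median of all measured miRNAs by 0.69 (log2) in HCT29, and the size factors of DESeq2 moved it by 0.87. The log2 ratio of miR-301a-3p was -1.86 as deposited, -1.16 under TMM and -0.99, within 2-fold, under DESeq2 factors, and that of miR-454-3p was -2.10, -1.41 and -1.24. The log2 ratio of miR-130b-3p was -0.97 as deposited, -0.26 under TMM and -0.09 under DESeq2 factors. The size of the miR-130b-3p difference in HCT29 thus depends on the scaling.

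The same comparison was made in HCT15. miR-301a-3p was at 0.465 (0.335 to 0.647) and miR-454-3p at 0.344 (0.190 to 0.627) of the parental level in sphere exosomes, whereas the interval included 1 for miR-130b-3p (0.861, 0.692 to 1.08) and for miR-301b-3p (1.02, 0.602 to 1.81). miR-130a-3p had 42 sphere reads and 0 parental reads, at least 4.45-fold higher with 3 reads taken for the 0, and at least 3.46-fold by the exact interval. Of the 4 members measured, 2 were lower, against 28.2% of the 305 miRNAs measured, and 1 was higher, against 32.1%. The member with the higher call passed the minimum through the sphere library alone, and miR-454-5p, with 3 sphere reads and 5 parental reads, was not measured. The median log2 ratio was -0.66 over the 4 and -0.12 over all miRNAs measured, of which 98 were higher and 86 lower as deposited, and 121 higher and 54 lower under TMM scaling.

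TMM scaling moved the median of all miRNAs by 0.55 in HCT15 and took both lower members to within 2-fold, miR-301a-3p with a log2 ratio of -0.55 and miR-454-3p with -0.97, while miR-130b-3p had -0.22 as deposited and 0.34 under TMM. DESeq2 size factors gave -0.59, -1.01 and 0.30 for these 3. In HCT15 the scaling therefore decides the 2-fold calls of the lower members, miR-454-3p under DESeq2 factors apart, and the direction of miR-130b-3p.

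**Figure D2:**
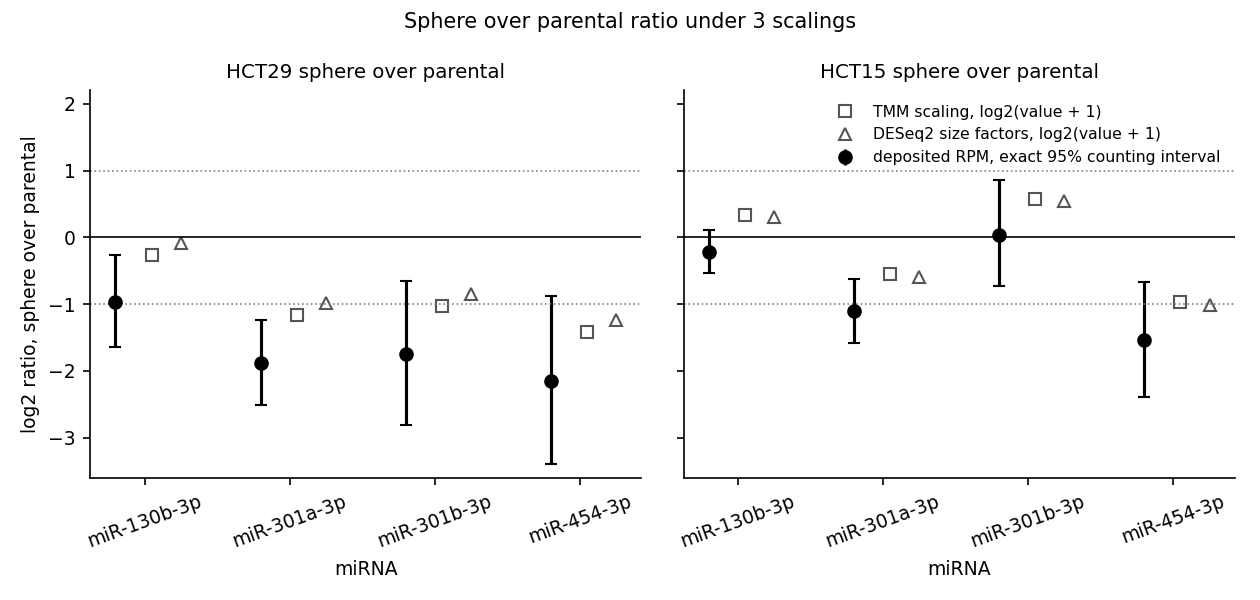
Log2 ratio of sphere over parental in HCT29 (left) and HCT15 (right) for the 4 strands of the seed with reads in all libraries: filled points are ratios of deposited RPM with exact 95% counting intervals, squares and triangles the same under TMM and DESeq2 scaling, and dotted lines mark 2-fold. miR-301a-3p and miR-454-3p lie below 0 in both lines under all 3 scalings, whereas miR-130b-3p is above 0 in HCT15 under TMM (0.34) and DESeq2 factors (0.30).

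Among 188 miRNAs with values in each line, 25 were lower by 2-fold or more in HCT29 and in HCT15 spheres, and miR-301a-3p and miR-454-3p were 2 of these, out of 3 members measured in both. For the culture effect the lines served as replicates. A limma fit of log2(RPM + 1) on line and culture tested 222 miRNAs, 3 of them members, and 0 (0%) were higher or lower at a threshold of 0.05 after Benjamini-Hochberg adjustment. At an unadjusted p under 0.05 there were 12, and edgeR's quasi-likelihood test on recovered reads gave 0 (3 at an unadjusted p under 0.05) and DESeq2 1 (10), none of which was a member after adjustment. The log2 change in spheres was -1.48 (SE 1.26) for miR-301a-3p, -1.81 (SE 1.30) for miR-454-3p and -0.59 (SE 1.29) for miR-130b-3p, lower in 2 of 2 lines each as deposited, and the limma adjusted p was 0.968 for all 3. TMM scaling made the change of miR-130b-3p 0.04. Because each miRNA leaves 1 residual degree of freedom, limma draws these SEs largely from all the miRNAs tested together. They are not a member's own spread between lines: miR-301a-3p had -1.86 in HCT29 and -1.10 in HCT15, beside an SE of 1.26. None of these differences was shown to exceed that shared estimate.

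**Figure D3:**
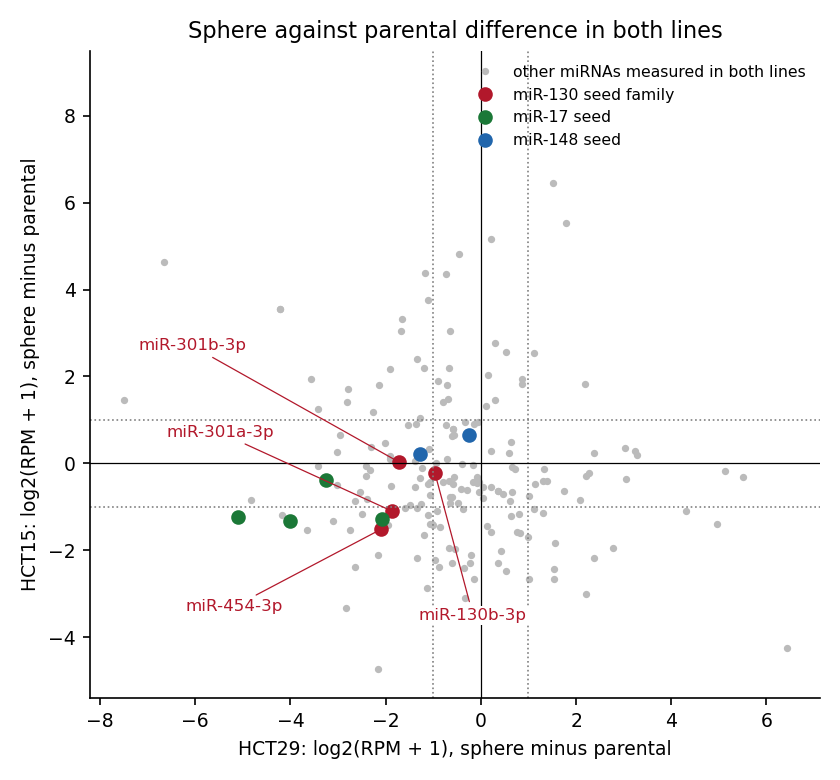
Difference in log2(RPM + 1), sphere minus parental, in HCT29 (x axis) and HCT15 (y axis) for the 188 miRNAs measured in both lines, with dotted lines at 2-fold. miR-301a-3p and miR-454-3p lie past 2-fold on the lower side of both axes, close to 1 of the miR-17 seed miRNAs, while miR-130b-3p and miR-301b-3p lie near 0 in HCT15.

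Ratios between members of the same library do not depend on how libraries are scaled, and they show how the make-up of the family differed. miR-130b-3p made up 44.0% (35.9 to 52.3) of the family's reads in HCT29 sphere and 29.0% (20.1 to 39.4) in HCT29 parental, and 57.7% (53.4 to 62.0) in HCT15 sphere and 51.1% (44.3 to 57.9) in HCT15 parental. miR-301a-3p made up 34.0% (26.5 to 42.2) in HCT29 sphere and 41.9% (31.8 to 52.6) in HCT29 parental, and 17.9% (14.8 to 21.5) in HCT15 sphere and 29.4% (23.5 to 35.9) in HCT15 parental. Reads of miR-130b-3p per read of miR-301a-3p were 1.29 in HCT29 sphere and 0.692 in HCT29 parental, and 3.22 in HCT15 sphere and 1.74 in HCT15 parental. The conditional odds ratio of sphere over parental was 1.86 (0.971 to 3.62) in HCT29 and 1.85 (1.24 to 2.76) in HCT15, nearly the same in the lines, although the HCT29 interval includes 1. Between the lines the same quantity, HCT29 over HCT15, was 0.403 (0.255 to 0.635) in spheres and 0.400 (0.214 to 0.738) in parental cells.

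The pair of strands from SKA2 stayed in a narrower range. Reads of miR-301a-3p per read of miR-454-3p were 3.92 in HCT29 sphere, 3.25 in HCT29 parental, 3.65 in HCT15 sphere and 2.71 in HCT15 parental, and the odds ratio of sphere over parental was 1.21 (0.448 to 3.22) in HCT29 and 1.35 (0.676 to 2.68) in HCT15. These wide intervals come from 12 to 26 reads of miR-454-3p and leave room for a change of over 2-fold either way in HCT29. The pair from chromosome 22 varied more: reads of miR-130b-3p per read of miR-301b-3p were 3.30 in HCT29 sphere, 1.93 in HCT29 parental, 5.02 in HCT15 sphere and 5.95 in HCT15 parental. The interval of the odds ratio excluded 1 for HCT29 over HCT15 in parental cells (0.327, 0.135 to 0.799) and included 1 in spheres (0.659, 0.362 to 1.23) and for sphere over parental in either line. Whether these pairs differ in range was not tested, and both ratios carry the uncertain split of reads between miR-301a-3p and miR-301b-3p.

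The split of exosomal reads between the 2 strands of the MIR454 hairpin differed in HCT29 sphere. There the 3p strand held 29.5% (16.8 to 45.2) of the 44 reads of both strands, against 100% (73.5 to 100) of 12 reads in HCT29 parental. In HCT15 it held 89.7% (72.6 to 97.8) of 29 reads in sphere and 82.8% (64.2 to 94.2) of 29 reads in parental, so the interval of HCT29 sphere overlaps none of the others. Reads of miR-454-5p per read of miR-454-3p were 2.38 in HCT29 sphere and 0.115 in HCT15 sphere, an odds ratio of 19.7 (4.82 to 119). The lower limit of the odds ratio of HCT29 sphere over HCT29 parental was 5.38. These odds ratios were added after values were seen. HCT29 sphere was also the only library where miR-454-5p reached the minimum of reads used for calls. The intervals thus describe a split already seen and are no independent test of it. The seed of miR-454-5p, printed above, is CCCUAUC and differs from that of the family.

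The other hairpins gave mostly 3p reads in every library where they were detected. miR-301a-5p had 1 read in HCT15 parental and 0 in the other libraries, and miR-301b-5p and miR-130a-5p had 0 in all 4. miR-130b-5p had 10 reads (18.8 RPM) in HCT29 sphere, 1 read (9.04 RPM) in HCT29 parental, 25 reads (54.2 RPM) in HCT15 sphere and 26 reads (177 RPM) in HCT15 parental. The 3p strand of MIR130B accordingly held 86.8% (77.1 to 93.5) of its reads in HCT29 sphere, 96.4% (81.7 to 99.9) in HCT29 parental, 92.4% (89.1 to 95.1) in HCT15 sphere and 81.3% (73.8 to 87.4) in HCT15 parental. In HCT15 the 2 intervals do not overlap, and the odds of a 3p read were 2.81 times (1.49 to 5.31) the parental odds in the sphere library.

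**Figure D4:**
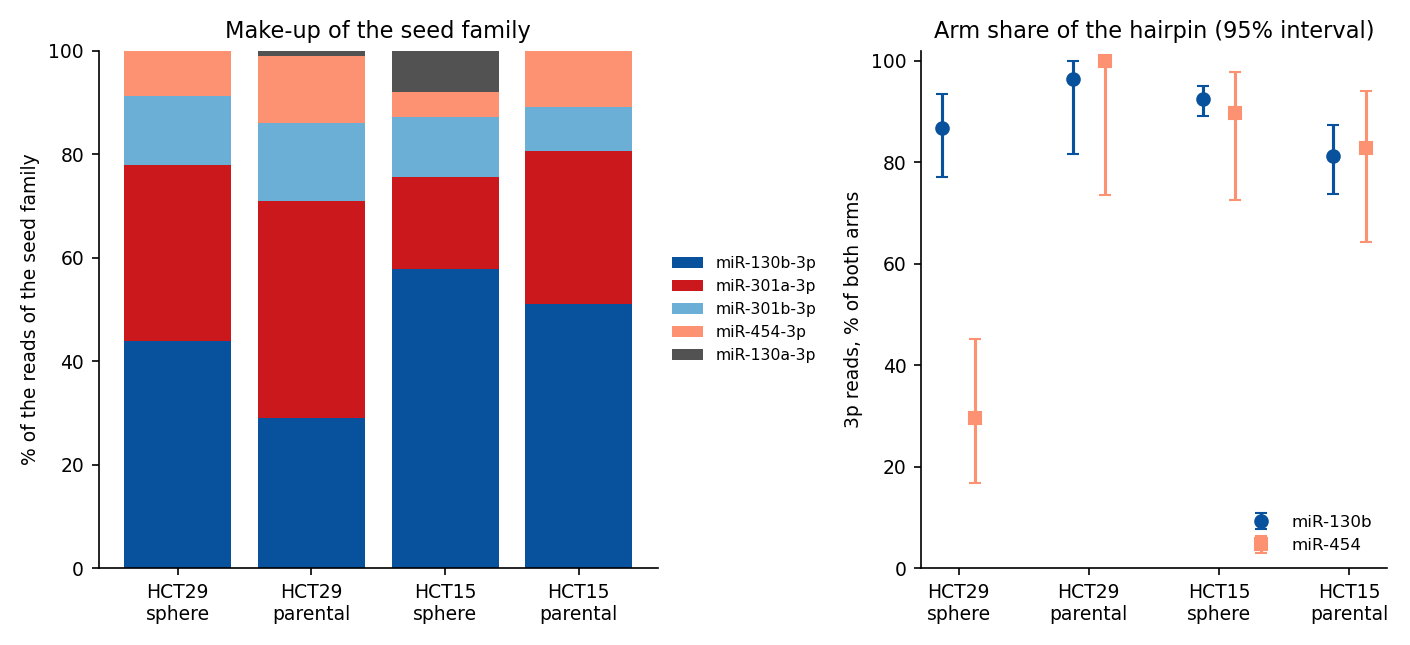
Left, share of each strand in the reads of the seed family (%) per library, and right, share of 3p reads in the reads of both strands of a hairpin (%), with exact 95% intervals, for miR-130b and miR-454. miR-130b-3p holds 57.7% in HCT15 sphere and 29.0% in HCT29 parental, and the 3p share of miR-454 is 29.5% in HCT29 sphere and at least 82.8% in the other 3 libraries.

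The reads of miR-130a-3p in HCT15 sphere came with a higher level of fibroblast and smooth muscle miRNAs in that library. All 6 of those markers had reads there, with a summed level of 4557 RPM, against 4 of 6 and 1200 RPM in HCT15 parental. In HCT29 they summed to 181 RPM in sphere, with 2 of 6 detected and miR-145-5p, miR-199a-5p, miR-199b-5p and miR-214-3p at 0, and to 1482 RPM in parental, with 4 of 6 detected. Blood cell markers went the other way in HCT15, with 152 RPM in sphere (4 of 7 detected, miR-451a, miR-144-3p and miR-223-3p at 0) and 4023 RPM in parental (6 of 7 detected), and in HCT29 they summed to 360 RPM in sphere (4 of 7 detected) and 1645 RPM in parental (7 of 7). The strands of the endothelial miR-126 were also lower in HCT15 sphere, at 158 RPM against 934 RPM in HCT15 parental, and had 450 RPM in HCT29 sphere and 849 RPM in HCT29 parental. The part of other cell types in the miR-130a-3p result was not tested.

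HCT29 exosomes were compared with HCT15 exosomes within each culture to describe the family across lines. In spheres, 4 of the 5 members were at least 2-fold lower in HCT29, against 56% of the 325 miRNAs measured, and miR-454-5p was higher, against 25.2%. miR-130a-3p and miR-454-5p passed the minimum of 10 reads through 1 library alone, HCT15 sphere and HCT29 sphere in that order, so each could be called in 1 direction only. The HCT29 over HCT15 ratio was 0.187 (0.141 to 0.245) for miR-130b-3p, 0.466 (0.325 to 0.662) for miR-301a-3p and 0.434 (0.205 to 0.876) for miR-454-3p. miR-454-5p, with 31 reads in HCT29 sphere and 3 in HCT15 sphere, had a ratio of 8.98 (2.80 to 45.9). miR-130a-3p, with 0 and 42 reads, was at least 16.1-fold lower in HCT29 sphere with 3 reads taken for the 0, and the exact upper limit of its HCT29 over HCT15 ratio was 0.0798. A share of 56% shows that lower calls in HCT29 spheres were common among all miRNAs, and TMM scaling left miR-301a-3p (-0.54) and miR-454-3p (-0.64) within 2-fold on the log2 scale.

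In parental cells, 1 of the 3 members measured was lower in HCT29, against 46.4% of the 224 miRNAs measured, and 0 were higher, against 22.8%. That member was miR-130b-3p, with an HCT29 over HCT15 ratio of 0.317 (0.200 to 0.485). miR-301a-3p (0.795, 0.520 to 1.20) and miR-454-3p (0.663, 0.302 to 1.38) had intervals that include 1. In the limma fit over both cultures, 8 of 222 miRNAs were higher in HCT29 (3.6%) and 20 lower (9.01%), and no member passed. miR-130b-3p had a log2 change of -2.03 (SE 1.29), lower in 2 of 2 cultures, with a limma adjusted p of 0.337, and miR-301a-3p and miR-454-3p had -0.71 (SE 1.26, adjusted p 0.751) and -0.88 (SE 1.30, adjusted p 0.721).

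Likeness of pattern was measured as the distance between log2(RPM + 1) profiles over the 4 libraries, each centred on its own mean, among 219 other miRNAs that reached 10 reads in 2 libraries or more. miR-301a-3p was closest to miR-221-3p (0.43), miR-1180-3p (0.52) and miR-99b-3p (0.56), against a median distance of 2.37. Its distance to miR-454-3p, within the family, was 0.38. miR-454-3p was closest to miR-221-3p (0.54), miR-193b-3p (0.55) and miR-140-3p (0.60). miR-130b-3p had other neighbours, let-7g-5p (0.45), miR-320a (0.56) and miR-7641 (0.56), and stood at 1.59 from miR-301a-3p and 1.68 from miR-454-3p. With 4 libraries that share their depth and scaling, these distances are a description only.

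miRNAs with seeds that overlap AGUGCAA were set beside the family. The miR-148 seed, CAGUGCA, is shifted by 1 base, and miR-17 seed miRNAs, AAAGUGC, share 5 letters with it. In HCT29, 4 of the 4 miR-17 seed miRNAs measured were lower in spheres, with log2 ratios from -5.11 to -2.08, and 1 of 2 with the miR-148 seed was lower (miR-148b-3p, -1.27). In HCT15, 3 of 4 with the miR-17 seed were lower, with log2 ratios of the 4 from -1.33 to -0.39, and 0 of 3 with the miR-148 seed were called, with log2 ratios from 0.21 to 0.96. miR-19a-3p and miR-19b-3p were both lower in HCT29 spheres (-3.42 and -4.18), while in HCT15 miR-19b-3p was lower (-1.19) and miR-19a-3p was within 2-fold (-0.07). Of all miRNAs measured, 36.2% were lower in HCT29 spheres and 28.2% in HCT15 spheres. The summed RPM of the miR-130 seed was 0.336 times (0.258 to 0.440) the parental value in HCT29 spheres and 0.763 times (0.651 to 0.896) in HCT15 spheres. Sums of the miR-130 seed include miR-130a-3p. The sums of the miR-17 seed stood at 0.176 (0.160 to 0.193) and 0.430 (0.392 to 0.472), and those of the miR-148 seed at 0.680 (0.582 to 0.797) and 1.54 (1.44 to 1.64), in HCT29 and HCT15. TMM scaling moved the sum of the miR-130 seed to 0.549 (0.421 to 0.719) in HCT29 and 1.12 (0.954 to 1.31) in HCT15, that of the miR-17 seed to 0.287 (0.262 to 0.315) and 0.631 (0.575 to 0.691), and that of the miR-148 seed to 1.11 (0.951 to 1.30) and 2.25 (2.11 to 2.41). In HCT15 TMM and DESeq2 factors alike left 0 of 4 miR-17 seed miRNAs and 0 of the miR-19 pair lower and called 2 of 3 with the miR-148 seed higher, and in HCT29 both left 0 of 2 with the miR-148 seed lower. Of all 305 miRNAs measured in HCT15, 121 were higher and 54 lower under TMM, and 118 higher and 58 lower under DESeq2 factors. Of all 224 in HCT29, 49 were lower under TMM and 47 under DESeq2 factors. The HCT15 sum of the miR-130 seed, below 1 as deposited, had intervals that include 1 under TMM and under DESeq2 factors (1.09, 0.930 to 1.28). The HCT29 sum of the miR-148 seed, also below 1 as deposited, included 1 under TMM and was above 1 under DESeq2 factors (1.25, 1.07 to 1.47). The differences between these lists were not tested.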

How the data were processed

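Small RNA libraries of 18-40 nucleotide fragments were made with TruSeq chemistry, per the labels' protocols, and hg19 is the genome build per the submitters' processing notes. Which aligner and which miRNA annotation were used is not given in the sources used here. The deposited values of the authors are RPM, per the file headers in HCT15, and those of HCT29, whose headers name the culture only, were read as RPM from their steps. Dividing by the step of each library gave whole reads for 100% of nonzero values within 0.1 read, with 77.8 to 89.9% of the implied totals in listed miRNAs. No sample column was left out.

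Ratios use RPM with exact conditional binomial (Clopper-Pearson) 95% intervals on recovered reads, and levels exact Poisson intervals. Calls took 2-fold on log2(RPM + 1) and 10 reads in either library. limma 3.58.1 with a mean-variance trend modelled line and culture together over miRNAs that reached 10 reads in 2 or more libraries. Alternatives were TMM (edgeR 4.0.16), DESeq2 1.42.0, other denominators, pseudocounts of 0.1 and 10, and other minimums. The fits were run on simulated counts with a fixed spread and no difference between the lines. That does not show how they perform at the real spread. Python 3.11.15 with scipy 1.17.1 gave intervals. The members and lists, and the rule for named miRNAs (members, strands of the same seed or hairpins, overlapping seeds, and the 3 nearest profiles), were chosen with earlier results of these data known. Ratios between strands within a library, their odds ratios, and the scaling of summed lists were added to the planned analyses after values were seen.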

Additional observations from a re-analysis of the deposited data

Results flagged for a closer look

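The difference between spheres and parental cells in log2(RPM + 1) had a different sign in HCT29 than in HCT15 for 4 miRNAs of these hairpins. These differences rest on 1 library per group and were not tested, and for miR-130a-3p, miR-301b-3p and miR-130b-5p the counting interval of the ratio includes 1 in 1 of the lines, so that no direction is shown there. For miR-130a-3p the log2 ratio was -3.33 in HCT29, on 0 sphere reads and 1 parental read, and 6.52 in HCT15, on 42 and 0 reads, a difference of -9.85. For miR-454-5p it was 5.89 in HCT29, on 31 sphere reads and 0 parental reads, and -2.23 in HCT15, on 3 and 5 reads, a difference of 8.12. The HCT15 ratio of miR-454-5p, with an upper limit of 0.981, rests on counts below the minimum of 10 reads, so no direction is called there. The same -9.85 and 8.12 are the differences, sphere minus parental, between the HCT29 over HCT15 log2 ratios, whose signs also differ, although in parental cells they rest on 1 and 0 reads of miR-130a-3p and 0 and 5 reads of miR-454-5p, with intervals that include 1. For miR-301b-3p it was -1.72 in HCT29 and 0.03 in HCT15, a difference of -1.75, and for miR-130b-5p it was 0.98 in HCT29, on 10 sphere reads and 1 parental read, and -1.69 in HCT15, a difference of 2.67. The sizes for counts of 0 depend on the pseudocount and are no bounds.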

How the results depend on the processing

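Of 189 alternative values of single ratios, 174 lay within the counting interval of the reported ratio, 15 lay outside it, and 0 of the called ones changed sign. Values under another minimum of reads keep the ratio as reported, so they lie within the interval by construction. Where a count is 0 the interval is open to one side, which makes it easier to stay within. Members at least 2-fold lower in HCT15 spheres numbered 2 as reported, 0 under TMM, 1 under DESeq2 size factors and 1 without miR-10a-5p in the denominator. Of all 305 miRNAs measured, 86, 54, 58 and 71 were lower in the same order. In HCT29 spheres the lower members numbered 2, and 1 under DESeq2 factors or with at least 20 reads, where miR-454-3p was no longer measured. Beside them, 81 of all 224 miRNAs were lower as reported, 47 of 224 under DESeq2 factors and 62 of 172 with at least 20 reads. In HCT29 against HCT15 spheres 4 members were lower, and 2 under TMM or DESeq2 factors. Of all 325 miRNAs there, 182 were lower as reported, 160 under TMM and 155 under DESeq2 factors. With no minimum, the parental comparison of the lines had 1 higher and 2 lower, beside 156 higher and 289 lower of all 573 miRNAs, and the added calls rest on 1 and 0 reads of miR-130a-3p and 0 and 5 of miR-454-5p. For the culture effect, DESeq2 gave 1 miRNA higher where limma gave 0, and the log2 change of miR-130b-3p, which passed no test, was 0.0364 under TMM, 0.0961 with edgeR and 0.0782 with DESeq2, and that of miR-130b-5p 0.26 under TMM and 0.16 with DESeq2, against -0.59 and -0.35 as reported. The line effect had 8 miRNAs higher and 20 lower as reported, 13 lower under TMM, 2 and 3 with a pseudocount of 0.1, 5 and 12 without a minimum, 5 and 5 with edgeR, and 8 lower with DESeq2. Without the replicate block, that is without a term for the line or the culture, the culture effect kept 0 calls and the line effect had 2 higher and 5 lower. The smallest limma, edgeR or DESeq2 adjusted p of a member was 0.283, for miR-130b-3p in the line effect without the block. Apart from the scalings and the filter, whose construction sets the change, the cause was not tested. No sample could be left out in turn, as each group holds 1. Depth limits miR-454-3p, with 12 or 13 reads in HCT29 libraries, and every count of 0 in parental libraries.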
